A study of Mus musculus with 4 samples.

Results

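Gene expression in the heart of tumor-free mice was compared between the normal exercise group E(+)T(−), which ran on a treadmill, and the normal control group E(−)T(−), which did not. A gene was kept when its normalized read count reached 16 in at least 1 of these 2 libraries, and 11855 of the 23238 gene symbols met this minimum. The heat shock chaperones and the genes of the extracellular matrix were set aside, so that the account below concerns the other pathways of the heart.

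The study followed male CDF1 mice given high-intensity aerobic exercise on a motorized treadmill, with or without CT26 colorectal cancer cells injected through the tail vein. The normal control group E(−)T(−) had neither exercise nor tumor cells, the normal exercise group E(+)T(−) had exercise alone, the cancer control group E(−)T(+) had tumor cells alone, and the cancer exercise group E(+)T(+) had both. The labels give the strain as CDF1 and the age as postnatal day 28 for every heart sample, and name no genetic change. By the study's methods, the mice were bought at about this age and killed at the end of the experiment. The labelled age therefore need not be the age at tissue collection. The design text gives 10 mice per group, but each group has 1 heart library, and whether a heart library came from 1 mouse or from a pool is not given in the sources used here. With 1 library per group, the mouse, the dissection and the exercise cannot be told apart, and no test across conditions is possible. In a whole heart sample, fewer cells of a type and less RNA per cell cannot be told apart either.

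The heart draws most of its energy from fatty acids, which reach the cardiomyocyte from the blood, and it makes little fat itself. Exercise raises the work of the heart, adrenergic drive and calcium cycling, and in many tissues it is followed within minutes to hours by transcription of the immediate early genes, by glucocorticoid signaling and by a shift between glucose and fat as fuel. A heart sample also holds endothelium, smooth muscle, fibroblasts, nerve, blood and resident macrophages, and can carry fat from around the heart and tissue from its neighbors in the chest.

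The 4 heart libraries held between 6595402 and 11545960 recovered reads, with 6595402 in the normal control and 8477152 in the normal exercise library. Globin genes took 8.76%, 8.40% and 7.86% of the reads in the normal control, normal exercise and cancer control libraries, and 37.3% in the cancer exercise library, so that the cancer exercise library stood apart. It does not enter the tumor-free comparison, and its values are given only beside those of the tumor-free hearts. The labelled tissue carried its defining markers in both tumor-free libraries: Myh6, the main myosin heavy chain of the adult mouse heart, had 33620 normalized reads in the control and 29980 in the exercise library, and Myl2, the ventricular regulatory light chain, had 57610 and 60010. Globin and erythroid genes did not separate the tumor-free pair, since none of the 14 genes kept was past 2-fold and their median log2 difference was −0.03.

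Of the 11855 genes kept, 376 were upregulated at least 2-fold in the exercised heart, which is 3.17% of all genes kept, and 406 were downregulated at least 2-fold, which is 3.42%. The median log2 difference over all genes kept was 0.00, and the middle 95% of them lay between −1.14 and 1.11. For single genes, a 95% Clopper-Pearson interval of the log2 difference is given, computed from the recovered reads. It holds the error of counting alone, and PCR duplicates make the number of separate molecules smaller than the number of reads. Outside the set-aside lists, 335 genes were higher and 401 were lower. The spread depended on the level: 27.5% of the 1714 genes with a mean under 32 normalized reads were past 2-fold in one direction or the other, against 1.34% of the 1119 genes with a mean of at least 1000, of which 12 were higher and 3 were lower. Just inside the minimum, between 16 and 20 normalized reads, 118 of 410 genes were past 2-fold, and just outside it, between 12 and 16, 150 of 450 were.

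**Figure D1:**
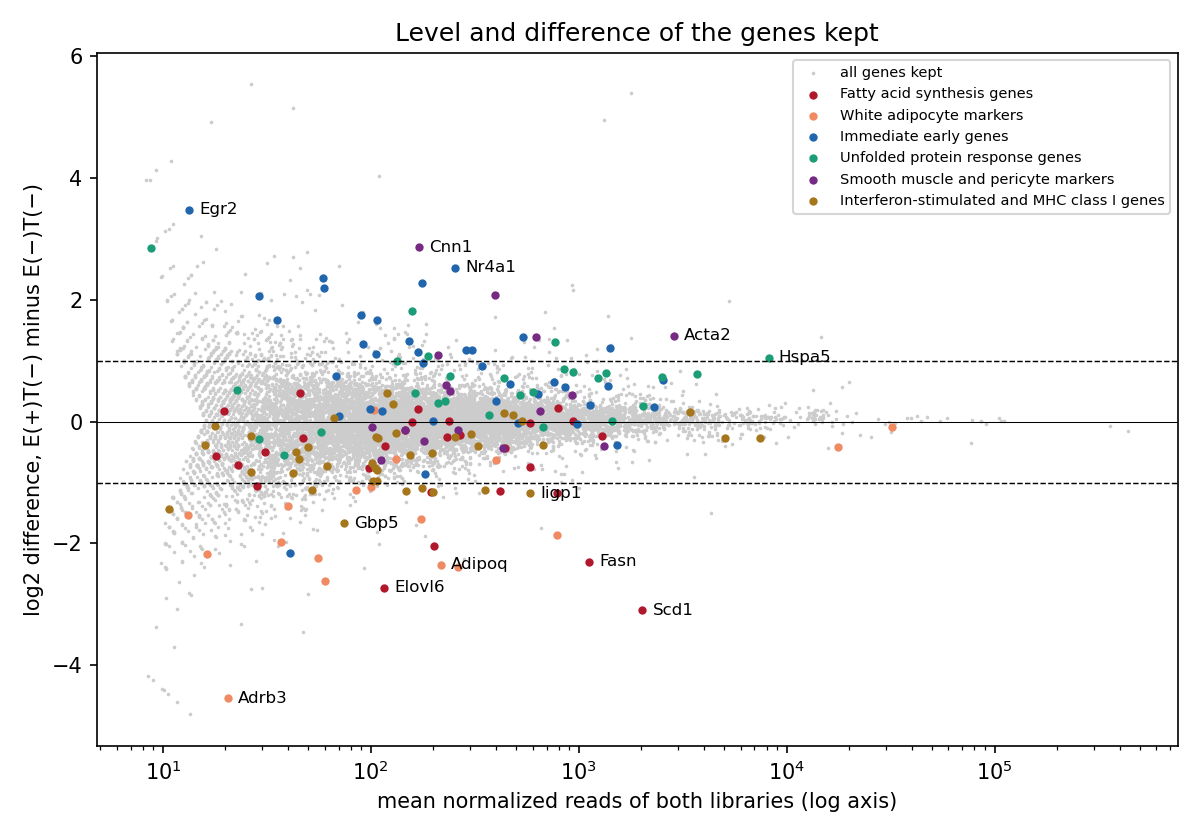
Each point is a gene kept, with the mean normalized reads of the 2 tumor-free libraries on a log horizontal axis and the log2 difference of exercise minus control on the vertical axis. Dashed lines mark 2-fold. The spread widens to the left. Of the colored lists, members of fatty acid synthesis and the white adipocyte list and the immediate early gene Gadd45a reach below −2. Egr2, Cnn1 and Nr4a1 are among the members above 2.

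For the 51 gene lists described, the counts past 2-fold are to be read against those shares of 3.17% and 3.42%. Immediate early genes had a list median of 0.84 and unfolded protein response genes one of 0.71, an order that turned with a minimum of 4 normalized reads (0.67 and 0.72) and with a minimum of 100 (0.67 and 0.73). White adipocyte markers had the lowest median, −1.56. Between these, the lists of ribosomal, respiratory chain, proteasome and fatty acid oxidation genes stayed close to the median of all genes.

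**Figure D2:**
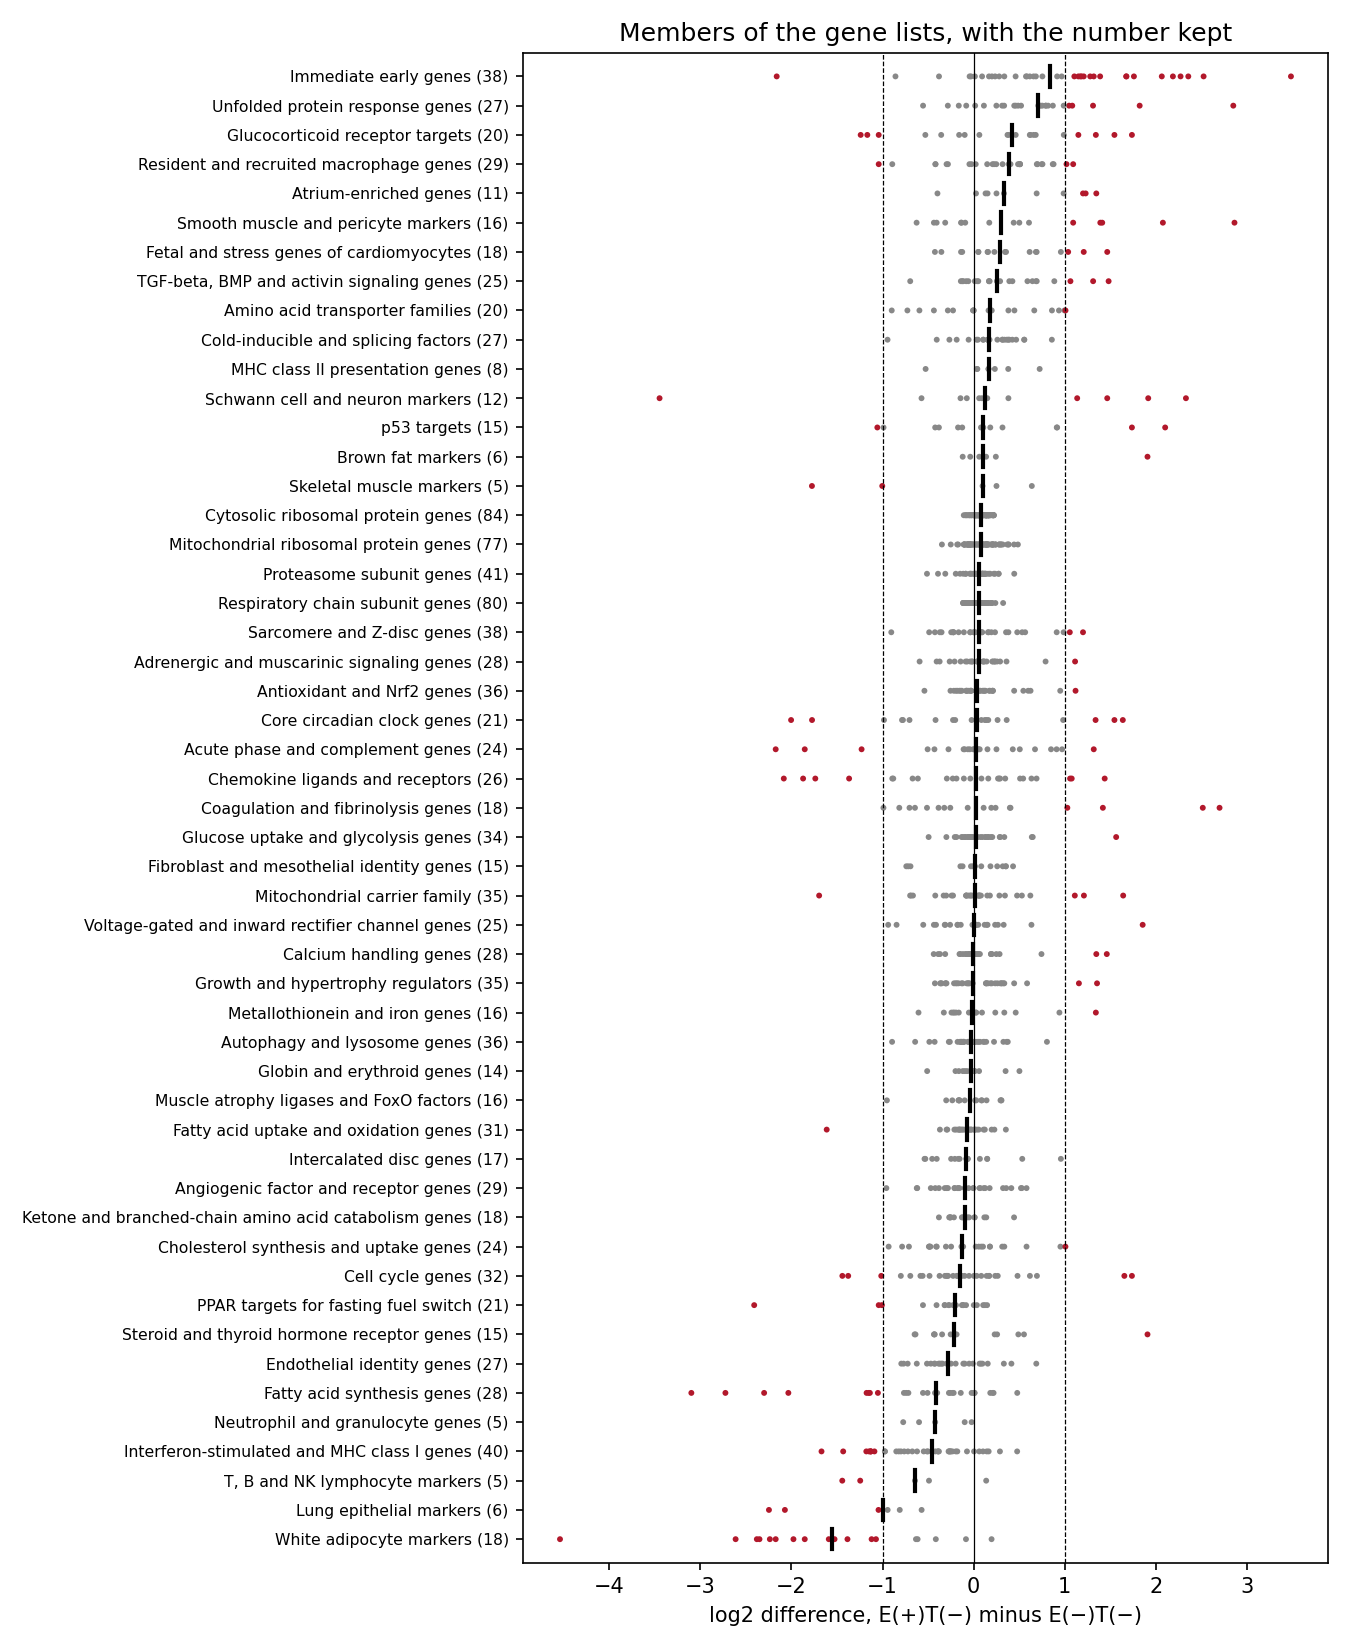
Each row is a gene list with the number of members kept in brackets, each point a member, and each black bar the list median of the log2 difference of exercise minus control. Red points are past 2-fold, dashed lines mark 2-fold and the solid line the median over all genes kept. Rows are ordered by their median, from 0.84 for immediate early genes to −1.56 for white adipocyte markers.

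Fatty acid synthesis held the largest falls among genes that reached 100 normalized reads. Of the 28 genes of this list that were kept, 8 fell at least 2-fold and none rose, with a list median of −0.41. Scd1, the desaturase that makes monounsaturated fatty acids, had 3625 normalized reads in the control and 422.1 in the exercise library, an 8.57-fold lower level. Fasn, the fatty acid synthase, fell from 1869 to 378.8 normalized reads, a log2 difference of −2.30 (95% interval −2.46 to −2.15). Acaca, the acetyl-CoA carboxylase that supplies malonyl-CoA, fell from 324.8 to 78.56 (−2.03, interval −2.41 to −1.70), and Elovl6, which lengthens the product, from 202 to 29.7 (−2.73, interval −3.35 to −2.22). The enzymes that feed the pathway were lower as well. Acly, the ATP citrate lyase, had 572.6 and 259.5 normalized reads, and Slc25a1, the mitochondrial citrate exporter, had 253.9 and 77.68, a log2 difference of −1.70. Thrsp, a nuclear factor that goes with lipogenesis, fell from 1092 to 483, Tkt, a transketolase of the pentose phosphate pathway, from 270.3 to 121.1, and Pnpla3, a lipid droplet acyltransferase and lipase, from 38.53 to 18.08 (−1.05, interval −1.98 to −0.27). A pseudocount of 8 in place of 1, which damps the change of low genes, took Pnpla3 below 2-fold, at −0.835. In contrast, the transcription factors that drive the pathway moved less than their targets: Srebf1 had 132.8 and 100.4 normalized reads (−0.40), and Mlxipl had 51.49 and 42.5 (−0.27). Txnip, a glucose-responsive inhibitor of glucose uptake, was chosen after its values were seen, and fell from 6364 to 2260 normalized reads (−1.49, interval −1.56 to −1.43).

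The normal control library was the high one for these genes among all 4 hearts. Scd1 had 289 normalized reads in E(−)T(+) and 322.8 in E(+)T(+), next to the 422.1 of E(+)T(−). Elovl6 had 20.96 and 26.4 in the tumor-bearing pair, and Fasn 161.1 and 159.9. For 7 of the 8 genes that fell (Scd1, Elovl6, Fasn, Acaca, Acly, Thrsp and Pnpla3), the control was at least 2-fold above each of the other 3 libraries, and for none was the exercise library at least 2-fold below each of the others. In tumor-bearing mice the exercise difference, which shares no library with the tumor-free pair, was 0.16 for Scd1, 0.32 for Elovl6, −0.01 for Fasn and −0.09 for Acaca.

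Markers of white adipocytes moved with fatty acid synthesis. Of the 18 markers kept, 13 fell at least 2-fold and 1 was higher by any amount, and the list median was −1.56. Adipoq, the adipocyte hormone adiponectin, had 363.1 normalized reads in the control and 70.36 in the exercise library. Cfd, the adipocyte protease adipsin, had 1228 and 338.9, Cidec, a lipid droplet protein, had 263.1 and 86.73, and Adrb3, the beta-3 adrenergic receptor of fat cells, went from 36 reads to 1 (−4.54, interval −10.85 to −2.94). These were all higher in the control, whereas 2 markers of the list that capillaries or muscle also express differed less: Fabp4 had 20070 and 15050 normalized reads (−0.41), and Lpl had 32950 and 31090 (−0.08). The summed level of the whole list was 56720 in the normal control, 47450 in the normal exercise, 72660 in the cancer control and 65910 in the cancer exercise library, carried mostly by Lpl and Fabp4. In the tumor-bearing pair the same markers took the opposite direction, and Adipoq had 66.79 normalized reads in E(−)T(+) and 389.2 in E(+)T(+). Thus Adipoq was high in E(−)T(−) and E(+)T(+), while Scd1 was high in E(−)T(−) alone. The part of adipose tissue in the fall of fatty acid synthesis was not tested. Leptin (Lep), which defines white fat, had 8 reads in the control and 0 in the exercise library, and a 0 allows up to 3 reads.

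Most genes that spare glucose and burn fat differed little, and a few fell past 2-fold. Of the 21 PPAR targets for the fasting fuel switch, 3 fell at least 2-fold, none rose, and the list median was −0.20. Angptl4, an inhibitor of lipoprotein lipase, had 157.4 and 28.82 normalized reads (−2.41, interval −3.05 to −1.89), Pdk4, the kinase that shuts pyruvate dehydrogenase, had 161.1 and 77.74 (−1.04, interval −1.46 to −0.66), and Ucp3, a mitochondrial carrier of muscle, had 50.06 and 24.4 (−1.01, interval −1.79 to −0.32). Pdk4 and Ucp3 no longer reached 2-fold with a pseudocount of 8, at −0.98 and −0.84. In contrast, all 3 were higher with exercise in the tumor-bearing pair, by 3.04 for Angptl4, 2.26 for Pdk4 and 3.46 for Ucp3, with E(−)T(+) as the low library. The enzymes of fatty acid uptake and oxidation kept their level, with 30 of 31 genes within 0.5 of 0 on the log2 scale. The exception, Slc27a1, a fatty acid transporter, had 37.64 and 11.63 normalized reads (−1.61, interval −2.73 to −0.72). Fbxo32, the atrogin-1 ubiquitin ligase of muscle atrophy, stayed just short of 2-fold, with 1228 and 634.2 normalized reads (−0.95).

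The machinery of energy and protein production held a narrow range. None of the 80 respiratory chain subunit genes was past 2-fold, and their log2 differences ran from −0.12 to 0.32, with 64 of them higher by any amount. The 77 mitochondrial ribosomal protein genes ran from −0.35 to 0.49 and the 84 cytosolic ribosomal protein genes from −0.11 to 0.22, again with none past 2-fold. None of the 41 proteasome subunit genes and none of the 36 autophagy and lysosome genes was past 2-fold. Within the mitochondrial carrier family, single members moved apart from this background. Slc25a25, a calcium-regulated carrier of ATP-magnesium and phosphate, rose from 41.43 to 131.4 normalized reads (1.64, interval 1.13 to 2.24), and was also at least 2-fold above both tumor-bearing libraries, which had 45.75 and 60.18. In glucose uptake and glycolysis, 31 of 34 genes lay within 0.5 of 0 and 1 was past 2-fold. This was Slc16a3, the lactate exporter MCT4, which had 9.41 normalized reads in the control and 29.8 in the exercise library (1.56, interval 0.56 to 3.03). Slc2a1, the glucose transporter GLUT1, had 84.98 and 133.8 (0.65, interval 0.25 to 1.08), and Pgam1, a phosphoglycerate mutase, had 426.6 and 664.8 (0.64, interval 0.46 to 0.82).

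**Figure D3:**
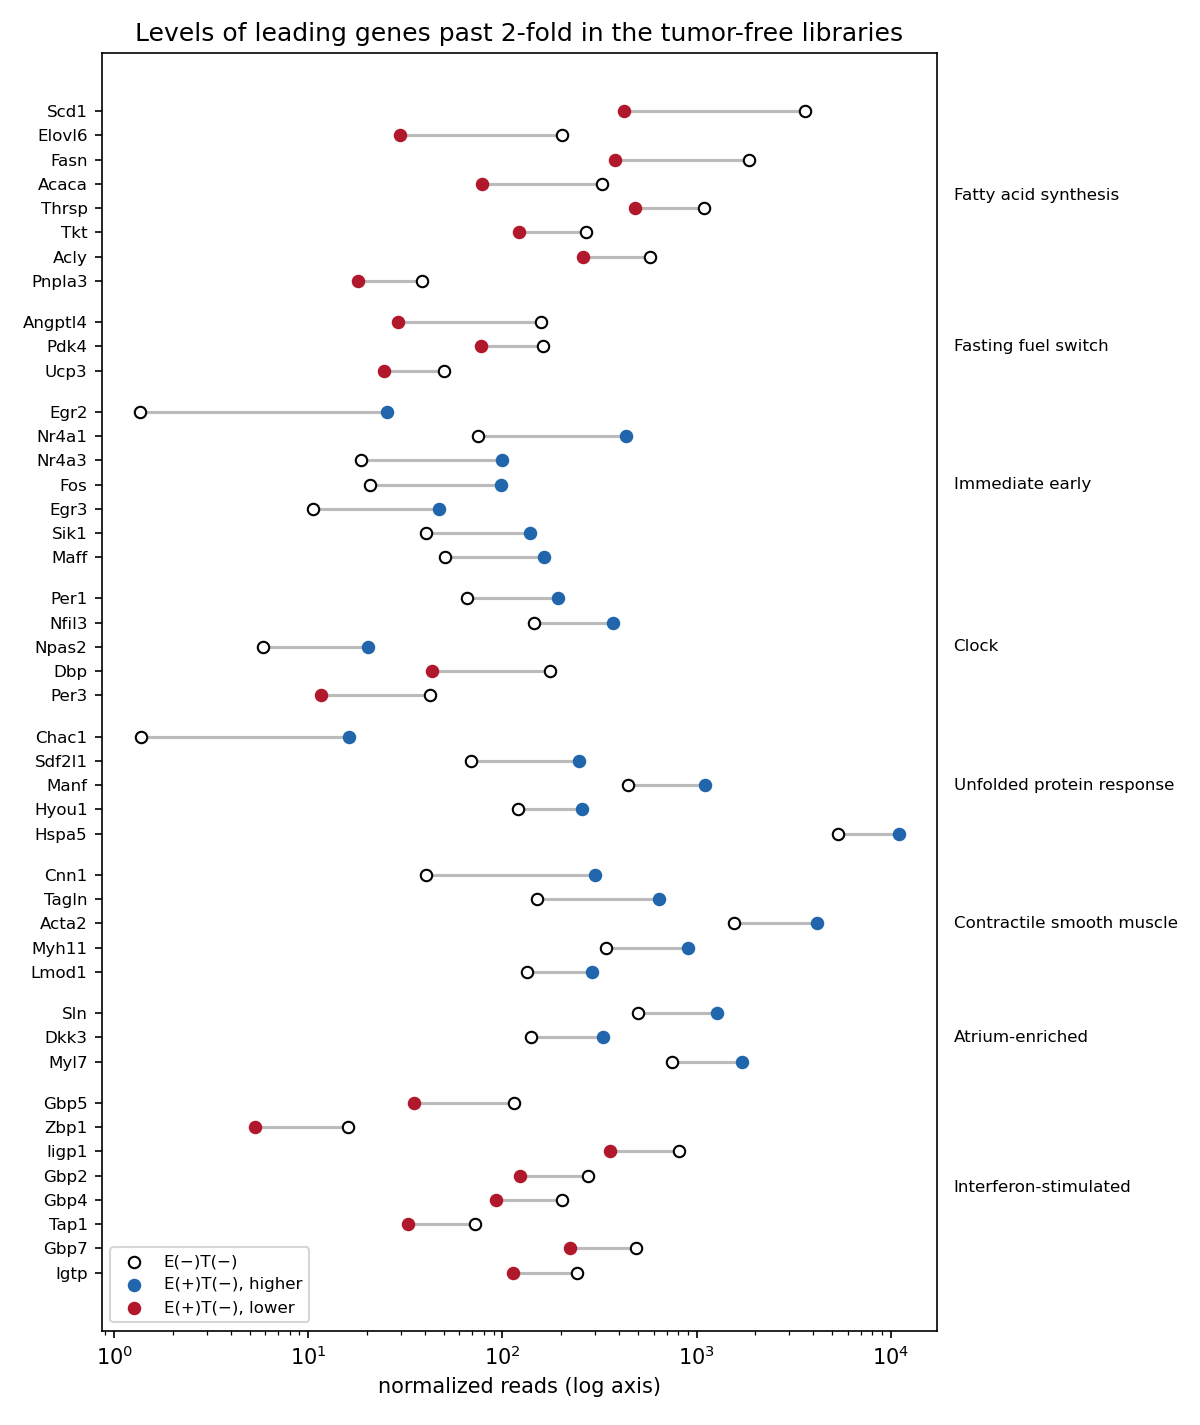
Normalized reads on a log axis for leading genes past 2-fold, grouped by list. Open circles are the normal control library and filled circles the normal exercise library, blue where higher and red where lower. Fatty acid synthesis, fasting fuel switch and interferon-stimulated genes lie to the left in the exercised heart, while immediate early, unfolded protein response, contractile smooth muscle and atrium-enriched genes lie to the right.

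Immediate early genes were among the most upregulated lists. Of 38 kept, 17 rose at least 2-fold, 1 fell at least 2-fold, 33 were higher and 5 lower by any amount, and the median was 0.84. The orphan nuclear receptors Nr4a1 and Nr4a3, which respond to calcium and cyclic AMP in muscle, rose from 74.79 to 435.2 and from 18.62 to 99.5 normalized reads, the latter with an interval of 1.68 to 3.30. Fos, a partner of the AP-1 transcription factor, rose from 20.89 to 98.73 (2.19, interval 1.53 to 3.06), and its relative Fosl2 from 298.2 to 782.6. The zinc finger factor Egr2 went from 1 read to 28 (3.48, interval 1.87 to 9.82), Egr3 from 9 reads to 52 (2.07, interval 1.16 to 3.40), and Egr1 from 174.5 to 397.9 normalized reads. Sik1, a salt-inducible kinase, had 40.41 and 139.3 normalized reads, and Maff, a small Maf factor, had 50.73 and 164.5. The immediate early gene that fell past 2-fold, Gadd45a, a growth arrest gene, went from 67.5 to 14.31 (−2.16, interval −3.12 to −1.41). Outside this list, Cdkn1a, the cell cycle inhibitor p21 and a target of both p53 and glucocorticoids, rose from 634.2 to 2118 (1.74, interval 1.61 to 1.88).

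For the immediate early genes, too, the control was the library that stood apart. For 15 of the 17 genes that rose, the control was at least 2-fold below each of the other 3 libraries, and for none was the exercise library at least 2-fold above each of the others. Nr4a1 had 403.2 normalized reads in E(−)T(+) and 551.9 in E(+)T(+), and Atf3, a stress-responsive transcription factor, had 59.88 and 293.1 in the tumor-free pair and 348.5 and 568.3 in the tumor-bearing pair. Egr3 was one of the 2 genes for which the control did not stand apart in this way, with 6.86 in E(−)T(+) and 41.43 in E(+)T(+). The list median of the exercise difference in the tumor-bearing pair was 0.41, and Maff was past 2-fold higher in both pairs, by 1.68 and 1.26. The time between the last run and tissue collection is not given in the sources used here, and its part in these levels was not tested.

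The promoters of some of these genes hold the sites through which serum response factor and CREB, the factors of growth factor and cyclic AMP signaling, are known to act. RefSeq promoter windows, which run from 250 bases before to 50 bases after a start site on GRCm38.p6, were at hand for 8998 of the 11855 genes kept. The CArG box, the site of serum response factor, was found on either strand in 1.63% of all 32851 windows, in 1.40% of the 11538 windows of genes kept, in 4.67% of the 300 windows of genes at least 2-fold higher and in 0.86% of the 349 windows of genes at least 2-fold lower, outside the set-aside lists. Since windows of 1 gene can overlap, these are 10 of 249 higher genes and 3 of 294 lower genes, against 152 of the 8998 genes kept. The cAMP response element TGACGTCA was found in 1.79% of all windows, in 3.04% of those of genes kept, in 4.33% of those of the higher genes and 3.72% of those of the lower genes, and in the windows of 5 of the 29 immediate early genes that had one: Btg2, Errfi1, Maff, Rcan1 and Dusp1. Of the same 29 genes, 2 held a CArG box, namely Egr2 and Zfp36, an RNA-binding protein that destabilizes cytokine mRNA, which had 67.74 and 72.31 normalized reads (0.09). Given here, with the motif in capitals, are 2 stretches with a CArG box, upstream of different start sites of Egr2 (chr10:67537454-67537543 and chr10:67537757-67537846, plus strand), and the stretches with a cAMP response element of the 3 holders that rose past 2-fold, Maff (chr15:79347451-79347538, plus strand), Errfi1 (chr4:150854979-150855066, plus strand) and Rcan1 (chr16:92400206-92400293, minus strand).
Egr2: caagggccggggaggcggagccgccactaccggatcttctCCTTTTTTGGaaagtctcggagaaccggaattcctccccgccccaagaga
Egr2: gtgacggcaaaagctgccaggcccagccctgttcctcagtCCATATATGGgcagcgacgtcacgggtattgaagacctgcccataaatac
Maff: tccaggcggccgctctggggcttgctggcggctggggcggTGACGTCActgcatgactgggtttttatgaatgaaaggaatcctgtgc
Errfi1: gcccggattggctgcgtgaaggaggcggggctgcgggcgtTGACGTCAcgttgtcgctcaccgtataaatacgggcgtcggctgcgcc
Rcan1: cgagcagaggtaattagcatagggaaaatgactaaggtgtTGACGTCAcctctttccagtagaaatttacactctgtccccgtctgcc
A match is a description of the letters in the window, and binding was not measured. Of the 24 immediate early genes with a window but no cAMP response element, 10 rose past 2-fold, against 3 of the 5 holders. Without a CArG box, 12 of 27 rose past 2-fold, against 1 of the 2 holders. Maff rose by 1.68, Errfi1, an inhibitor of the EGF receptor, by 1.15 and Rcan1, an inhibitor of calcineurin, by 1.21 on the log2 scale.

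The core clock and its output genes moved in both directions. Of 21 kept, 3 rose and 2 fell at least 2-fold, with a median of 0.03. Per1, a clock repressor that is also induced by glucocorticoids, rose from 65.63 to 193.6 normalized reads (1.55, interval 1.14 to 2.02), Nfil3, a repressor of D-box genes, from 145.7 to 370.2 (1.34, interval 1.05 to 1.64), and Npas2, a partner of Bmal1, from 5 reads to 22 (1.64, interval 0.36 to 3.55). Dbp, a D-box activator and clock output gene, fell 4.01-fold from 176.4 to 43.23 (interval −2.52 to −1.55), Per3 from 42.17 to 11.62 (−1.77, interval −2.89 to −0.91), and Tef, a relative of Dbp, had 1087 and 548.9 (−0.98). Arntl, which encodes Bmal1, had 54.95 and 66.14 (0.26). The same directions of Nfil3, Per3 and Tef were measured in the tumor-bearing pair, with differences of 1.10, −2.39 and −0.72, whereas Per1 and Dbp had −0.35 and 0.09. The hour at which each heart was taken is not given in the sources used here, so that it cannot be told apart from the group.

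Of 20 targets of the glucocorticoid receptor kept, 4 rose and 3 fell at least 2-fold. By any amount, 13 were higher and 7 lower, with a median of 0.42. Besides Cdkn1a, Per1 and Errfi1, the metal-binding metallothionein Mt2 rose from 362.5 to 920.6 normalized reads (1.34, interval 1.16 to 1.53). Its level in the tumor-bearing pair was far higher, 30030 in E(−)T(+) and 33220 in E(+)T(+). In contrast, Zbtb16, a transcription factor strongly induced by glucocorticoids, fell from 459.8 to 204.2 (−1.17, interval −1.41 to −0.93), and Sult1a1, a sulfotransferase, from 312.9 to 131.9 (−1.24, interval −1.54 to −0.95).

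The unfolded protein response of the endoplasmic reticulum was higher as a list. Of 27 genes kept, 5 rose at least 2-fold, none fell past 2-fold, 23 were higher by any amount, and the median was 0.71. Sdf2l1, a cofactor of the chaperone BiP, rose from 68.94 to 246.5 normalized reads (1.82, interval 1.43 to 2.27), and Manf, a secreted protein of the stressed reticulum, from 442.6 to 1100 (1.31, interval 1.15 to 1.48). Hspa5, which encodes BiP itself and is also one of the set-aside chaperones, rose from 5333 to 11030 (1.05), and Hyou1, its exchange factor, from 120.4 to 256.2 (1.08, interval 0.76 to 1.43). Chac1, which degrades glutathione downstream of Atf4, went from 1 read to 18 (2.85, interval 1.17 to 9.21), and had 58.47 and 56.68 normalized reads in the tumor-bearing pair, so that here the control stood apart. The transcription factors of the pathway were higher by smaller amounts, namely Atf4 with 991.6 and 1720 normalized reads (0.79), Xbp1 with 330.3 and 540.9 (0.71) and Ddit3 with 439.2 and 598.7 (0.45). Unlike the immediate early genes, Sdf2l1, Manf and Hyou1 were at least 2-fold above each of the other 3 libraries in the exercised tumor-free heart, and Manf had 479.7 in E(−)T(+) and 433.1 in E(+)T(+). Under scaling without abundant genes, those above 1% of the reads, the list median was 0.58.

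The endoplasmic reticulum stress element, searched on both strands as CCAAT and CCACG with 9 bases of any kind between them, was found in 0.119% of all promoter windows and 0.121% of those of genes kept. Outside the set-aside lists, it was found in 0 of the 300 windows of genes at least 2-fold higher. Among the 349 windows of genes at least 2-fold lower, it was likewise found in 0. Of the 24 unfolded protein response genes with a window, 8 held it, and all 8 were higher by any amount, with a median of 0.76 against 0.48 for the other 16. Of those other 16, 12 were higher by any amount and 2 were past 2-fold higher. Hspa5, a set-aside chaperone, was the 1 holder past 2-fold. Given here, with the element in capitals, are the stretches of the 3 holders with the largest differences: Hspa5 (chr2:34771985-34772083), Creld2 (chr15:88819480-88819578) and Dnajc3 (chr14:118937787-118937885), all on the plus strand.
Hspa5: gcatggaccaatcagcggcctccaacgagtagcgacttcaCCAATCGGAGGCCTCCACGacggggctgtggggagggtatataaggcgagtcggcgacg
Creld2: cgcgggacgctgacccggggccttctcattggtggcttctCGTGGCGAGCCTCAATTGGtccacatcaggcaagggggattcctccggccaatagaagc
Dnajc3: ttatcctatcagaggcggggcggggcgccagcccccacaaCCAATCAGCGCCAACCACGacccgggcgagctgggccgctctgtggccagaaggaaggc
Creld2, a secreted reticulum protein whose element lies on the opposite strand, had 89.45 and 178.5 normalized reads (0.99), and Dnajc3, an inhibitor of the stress kinase PERK, had 602 and 1101 (0.87). There was no window for Manf or Hyou1.

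Genes of contractile smooth muscle rose, while those of pericytes did not. Of 16 smooth muscle and pericyte markers kept, 5 rose at least 2-fold and none fell past 2-fold, with a median of 0.31. Cnn1, calponin of the contractile apparatus, rose from 40.41 to 300.5 normalized reads (2.86, interval 2.40 to 3.45), Tagln, the actin-binding protein transgelin, from 150.5 to 638.6 (2.08, interval 1.82 to 2.37), Acta2, smooth muscle actin, from 1564 to 4164 (1.41), Myh11, smooth muscle myosin, from 342.9 to 901 (1.39, interval 1.21 to 1.59), and Lmod1, leiomodin, from 134.3 to 287.6 (1.09, interval 0.79 to 1.42). The pericyte markers Rgs5, Kcnj8 and Vtn had differences of −0.41, −0.44 and −0.63. Here again the control was lowest of all 4 hearts. Cnn1 had 191.4 and 183.7 in E(−)T(+) and E(+)T(+), and Acta2 had 2964 and 2731. The summed level of the list was 6883 in the control and 10850 in the exercise library, against 8746 and 8517 in the tumor-bearing pair. Eln, the elastin of large arteries, was set aside with the matrix genes and named after its values were seen, and it was lowest in the control as well, with 183.7 and 610.4 normalized reads in the tumor-free pair and 951.8 and 603.7 in the tumor-bearing pair. How much of the great vessels each heart sample held was not measured, and its part was not tested.

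Among genes of the cardiomyocyte, most of the contractile apparatus kept its level and 3 of 11 atrium-enriched genes rose past 2-fold. Of 38 sarcomere and Z-disc genes, 2 rose at least 2-fold and 31 lay within 0.5 of 0. Myl7, the atrial regulatory light chain, rose from 745.5 to 1715 normalized reads (1.20, interval 1.07 to 1.33), Sln, sarcolipin, an atrial inhibitor of the calcium pump, from 497.7 to 1268 (1.35, interval 1.19 to 1.51), and Dkk3, a secreted glycoprotein, from 140.1 to 330.1 (1.23, interval 0.94 to 1.55). Myl4, the atrial essential light chain, had 734.7 and 1458 (0.99), whereas Nppa, the atrial natriuretic peptide, had 12790 and 14220 (0.15). In all, 10 of the 11 atrium-enriched genes kept were higher by any amount, 6 lay within 0.5 of 0, and their summed level was 18720 in the control and 23430 in the exercise library. It was 24910 in E(−)T(+) and 40200 in E(+)T(+), and Sln was higher with exercise in both pairs, by 3.03 in the tumor-bearing one. How much atrium each sample held was not measured.

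Calcium handling, ion channels, adrenergic signaling and the intercalated disc showed few large differences. Of 28 calcium handling genes, 25 lay within 0.5 of 0. Besides Sln, Casq1, the calsequestrin of skeletal muscle, rose from 40.21 to 112.5 normalized reads (1.46, interval 0.93 to 2.07), while the tumor-bearing libraries had 24.53 and 26.38, both below the control. Cacnb2, a subunit of the L-type calcium channel, had 282.1 and 473.4 (0.74). Among the channel genes, Kcnj2, which sets the resting potential, had 129.1 and 66.93 (−0.94). Rgs2, a brake on Gq signaling, had 737.3 and 1276 (0.79). None of the 17 intercalated disc genes was past 2-fold, with Xirp1, a stress-responsive disc protein, the highest, at 249 and 484.7 (0.96). Among regulators of growth, Hand2, a transcription factor of heart development, rose from 406 to 1040 (1.35, interval 1.19 to 1.53) and Irs2, an adaptor of the insulin receptor, from 19.72 to 45.17 (1.16, interval 0.40 to 2.10, or 0.94 with a pseudocount of 8), while 32 of 35 genes lay within 0.5 of 0. The calcineurin target Rcan1 rose from 850.6 to 1968 (interval 1.09 to 1.33), Ankrd1, a stretch-responsive repressor, had 86530 and 67710 (−0.35), and Nppb, the B-type natriuretic peptide of the strained ventricle, had 664.8 and 844.7 (0.34).

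Interferon-stimulated genes were lower in the exercised heart. Of 40 kept, 8 fell at least 2-fold, none rose past 2-fold, 33 were lower by any amount, and the median was −0.46. Of these 8 genes, 6 encode GTPases induced by interferon gamma, which attack the vacuoles of intracellular microbes. Gbp5 fell from 114.1 to 35.18 normalized reads (−1.67, interval −2.27 to −1.15), Gbp2 from 275.9 to 123.8 (−1.15, interval −1.47 to −0.85), Gbp7 from 486.8 to 222.5 (−1.13, interval −1.36 to −0.90), Gbp4 from 203.5 to 92.25 (−1.13), Iigp1 from 811.4 to 358 (−1.18) and Igtp from 241.5 to 113 (−1.09, interval −1.43 to −0.77). Tap1, the peptide transporter of class I presentation, fell from 72.16 to 32.43 (−1.13), and Zbp1, a sensor of nucleic acids, from 14 reads to 6 (−1.43, interval −3.23 to −0.09), and with a pseudocount of 8 these had −0.99 and −0.85. Among antiviral genes, Ifit3, which binds viral RNA complexes, had 143 and 72.31 (−0.97), and Isg15, a ubiquitin-like modifier, had 114.6 and 140.2 (0.29). Irf1, a transcription factor upstream of such genes, was near 0, at 532.7 and 534.6 (0.01). For 6 of the 8 genes the control was at least 2-fold above each of the other 3 libraries, and Gbp5 had 34.26 and 43.82 in the tumor-bearing pair. Guanylate-binding protein genes are close relatives, and the counting could have divided reads among them.

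The core of the interferon-stimulated response element, searched on both strands as GAAA and GAAA with 2 bases of any kind between them, was found in 3.44% of all promoter windows, in 2.90% of those of genes kept and in 48.6% of the 37 windows of this list. It was found in 5.44% of the windows of genes at least 2-fold lower and in 1.67% of those of genes at least 2-fold higher, outside the set-aside lists. The 18 members that held it had a median log2 difference of −0.74, and 4 of them were past 2-fold lower, against a median of −0.33 for the 14 members with a window without it, of which 1 was. Given here, with the core in capitals, are the stretches of these 4 genes: Gbp5 (chr3:142496729-142496818), Gbp7 (chr3:142530243-142530332), Gbp2 (chr3:142620564-142620653) and Igtp (chr11:58199482-58199571), all on the plus strand.
Gbp5: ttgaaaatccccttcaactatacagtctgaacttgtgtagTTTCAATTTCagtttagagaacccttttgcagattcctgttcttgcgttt
Gbp7: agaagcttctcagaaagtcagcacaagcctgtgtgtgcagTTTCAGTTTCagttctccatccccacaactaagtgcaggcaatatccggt
Gbp2: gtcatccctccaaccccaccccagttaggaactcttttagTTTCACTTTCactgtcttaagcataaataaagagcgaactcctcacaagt
Igtp: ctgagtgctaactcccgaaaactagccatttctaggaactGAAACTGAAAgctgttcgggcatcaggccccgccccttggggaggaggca
The stretches of Gbp5, Gbp7 and Gbp2 lie within one cluster of chromosome 3 and carry the core on the opposite strand. Of the 18 members that held the core, 2 were higher by any amount, namely Isg15, with 3 cores, and Ifitm3 (0.17), a membrane protein that blocks virus entry.

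Macrophage genes were higher by small amounts. Of 29 kept, 21 were higher by any amount, 2 past 2-fold, 1 fell past 2-fold, and the median was 0.39. C1qb, a complement subunit made by resident macrophages, had 401.5 and 738.8 normalized reads (0.88), and Lyve1, a marker of a resident subset, had 376.2 and 635.9 (0.76). Ms4a7, a macrophage membrane protein, rose from 21.96 to 47.98 (1.09, interval 0.36 to 1.98), and Timd4, a receptor for dying cells on long-lived resident macrophages, fell from 36.37 to 17.15 (−1.04, interval −1.995 to −0.23). Neither kept a 2-fold difference with a pseudocount of 8. Of 26 chemokine ligands and receptors kept, 3 rose and 4 fell past 2-fold, with a median of 0.025. The macrophage chemokines Ccl8, Ccl9 and Ccl6 rose, with Ccl8 at 72.47 and 198.2 (1.44, interval 1.04 to 1.88). In contrast, Cxcl13, a chemokine of B cells, fell from 22 reads to 6 (−2.08, interval −3.81 to −0.87) and Cxcl15, a chemokine of lung epithelium, from 25 reads to 8 (−1.87, interval −3.34 to −0.79). Cxcl9, a chemokine induced by interferon gamma, fell from 18 reads to 6 (−1.74, interval −3.55 to −0.53). With a pseudocount of 8, Ccl9 had 0.99. Of the 33 lymphocyte markers and the 17 neutrophil and granulocyte genes, 5 each reached the minimum. Of these lymphocyte markers, 1 was higher and 4 were lower by any amount, 2 of them past 2-fold, with a median of −0.64. The 5 neutrophil and granulocyte genes were all lower, none past 2-fold, with a median of −0.42. None of the 8 genes of class II presentation kept was past 2-fold, and H2-Aa had 1548 and 1586 normalized reads.

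Endothelial genes were lower without passing 2-fold. Of 27 kept, 20 were lower by any amount and none was past 2-fold, with a median of −0.28. Cdh5, the cadherin of endothelial junctions, had 843.5 and 494.6 normalized reads (−0.77, interval −0.93 to −0.61) and Kdr, the main VEGF receptor, had 2631 and 1707 (−0.62, interval −0.71 to −0.54), whereas Pecam1, a pan-endothelial adhesion molecule, had 1678 and 1773 (0.08). In coagulation and fibrinolysis, 4 of 18 genes rose past 2-fold, among them Procr, F10 and Plaur, and none fell past it. As a list these genes were evenly divided, with 9 higher and 9 lower by any amount and a median of 0.02. Procr, the endothelial protein C receptor, went from 9 reads to 82 (2.70, interval 1.85 to 4.03), F10, coagulation factor X, from 2 reads to 21 (2.52, interval 1.02 to 6.19) and Plaur, the urokinase receptor, from 9 reads to 33 (1.42, interval 0.44 to 2.78). Procr, F10 and Plaur were lowest in the control among the 4 hearts by at least 2-fold. In TGF-beta signaling, Inhba, a subunit of activin, rose from 20.8 to 59.88 (1.48, interval 0.76 to 2.37) and Smad6, an inhibitor of BMP signaling, from 36.92 to 93.16 (1.31, interval 0.76 to 1.97). Dio2, the deiodinase that activates thyroid hormone, rose from 30.08 to 115.7 (1.91, interval 1.34 to 2.63).

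Genes of nerve and of neighboring tissue also differed. Npy, a transmitter of sympathetic nerve, rose from 11 reads to 76 (2.33, interval 1.53 to 3.51), and Gfra3, a receptor of neurons and Schwann cells, from 6 reads to 32 (1.92, interval 0.80 to 3.62). The 6 lung epithelial markers kept were all lower in the exercise library, 3 of them past 2-fold. Scgb1a1, the secretoglobin of airway club cells, had 466.6 normalized reads in the control and 97.5 in the exercise library, against 363.3 in E(−)T(+) and 1228 in E(+)T(+), and the summed level of the lung list was 672.1, 195.7, 993.4 and 2097 in the same order. Of 15 skeletal muscle markers, 5 reached the minimum, and they were divided. By any amount, 3 were higher and 2 lower, the latter past 2-fold, with a median of 0.098. Mylpf, a fast light chain, had 21 reads and 7 (−1.77, interval −3.40 to −0.64). In contrast, Mybpc2 had 79.23 and 123.9 normalized reads (0.64, interval 0.22 to 1.09).

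**Figure D4:**
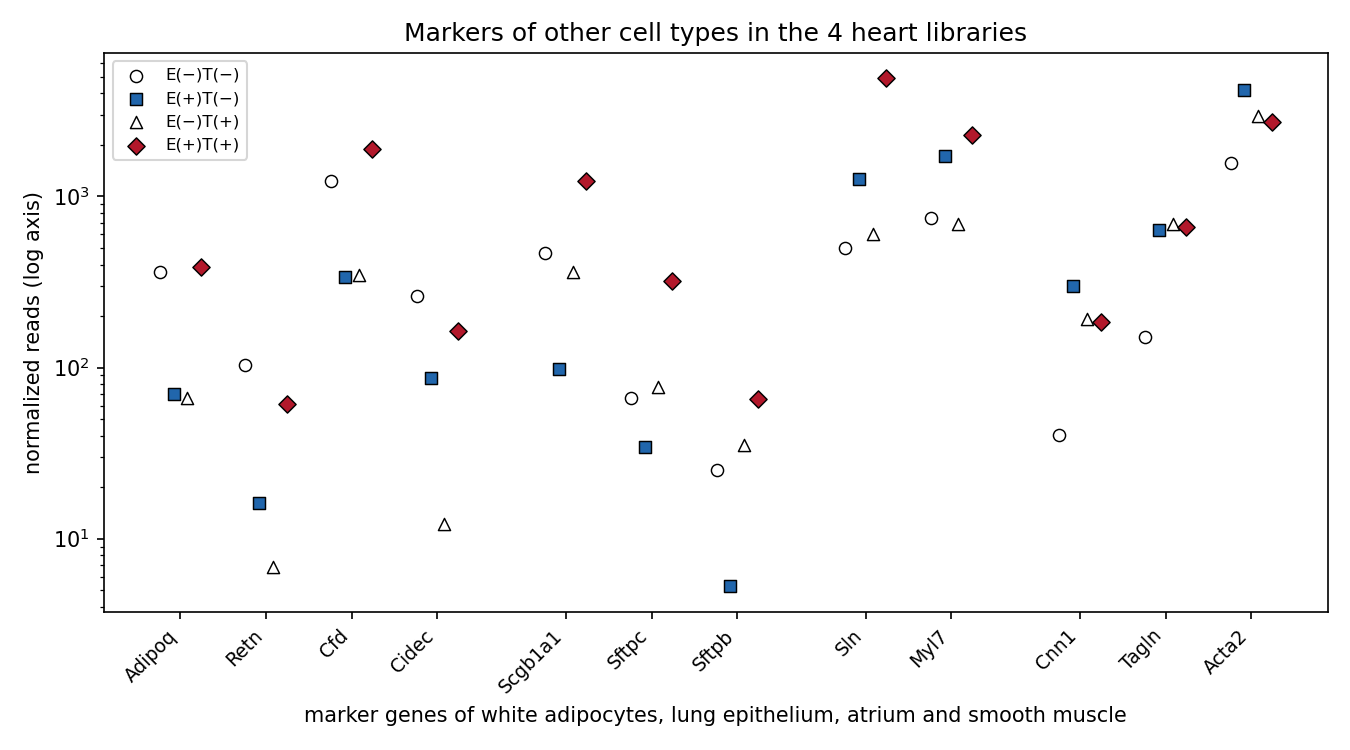
Normalized reads on a log axis for markers of white adipocytes, lung epithelium, atrium and smooth muscle in the 4 heart libraries, with circles for E(−)T(−), squares for E(+)T(−), triangles for E(−)T(+) and diamonds for E(+)T(+). Adipoq is high in E(−)T(−) and E(+)T(+), Cnn1 and Tagln are low in E(−)T(−) alone, and Scgb1a1 is low in E(+)T(−).

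Set against all 4 hearts, the genes past 2-fold outside the set-aside lists divided by which tumor-free library stood out. Of the 335 higher genes, the control was at least 2-fold below each of the other 3 libraries for 123, or 36.7%, and the exercise library at least 2-fold above each of the others for 68, or 20.3%. Of the 401 lower genes, the control was at least 2-fold above the others for 124, or 30.9%, and the exercise library at least 2-fold below the others for 90, or 22.4%. Since both libraries were used to call these genes, the shares are a description and have no test. The control stood out for immediate early genes, fatty acid synthesis, interferon-stimulated GTPases and Cnn1 and Tagln of smooth muscle. In contrast, the exercise library stood out for Sdf2l1, Manf and Hyou1 of the unfolded protein response and for Dbp of the clock. It stood out as well for Scgb1a1, Sftpb and Sftpa1 (interval −2.245 to 0.024), the 3 lung epithelial markers past 2-fold. The same held for Mcm5 and Mcm6, subunits of the replicative helicase, and E2f1, a factor of S phase entry. Mcm5 went from 29 reads to 13 (−1.44, interval −2.57 to −0.51), Mcm6 from 42 reads to 20 (−1.38, interval −2.26 to −0.61) and E2f1 from 23 reads to 14 (−1.01, interval −2.13 to −0.04), and E2f1 was below 2-fold with a pseudocount of 8 (−0.74). These were the 3 of 32 cell cycle genes kept that fell past 2-fold. By any amount, 13 of the list were higher and 19 lower, with a median of −0.15. The 2 that rose past 2-fold were Cdkn1a and Tyms, which went from 9 reads to 39 (1.655, interval 0.704 to 3.005).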

How the data were processed

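mRNA of the heart was measured by QuantSeq, which reads the 3′ end of mRNA. By the study's methods, alignment was with Bowtie2 (mm10 in the submitters' notes), counting with bedtools, and normalization by a quantile option of edgeR in R. Tool versions are not given in the sources used here. The authors deposited log2 values, namely log2 of normalized reads plus 1. The design had allowed for counts, and the log2 values were used instead.

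Normalized reads are 2 to the power of the deposited value, minus 1. Whole reads were recovered by fitting library sizes and a common dispersion of 0.149, under which each value was given back with an error of at most 0.000507. All of the 25460 values of 5 to 99 reads (100%) were whole numbers to a tolerance of 0.1. Differences are of deposited log2 values, E(+)T(−) minus E(−)T(−), so that they understate the change of low genes. A gene was kept at 16 normalized reads in at least 1 of both libraries and called at 2-fold. For 35 symbols with several values, the most abundant one was taken. Counting intervals are Clopper-Pearson (95%). The recovery and the calls were tested on simulated data. Genes with near-identical copies, such as globin and Gbp genes, are uncertain.

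The gene lists and members were chosen with earlier results of these data known. Genes named are from the 15 largest rises and falls that reach 100 normalized reads and from the 3 members with the largest differences of each list. Further members define a list or were named after their values were seen. Some genes that this rule selects are not reported here. Promoters and positions are from RefSeq (GRCm38.p6, to which mm10 corresponds). Alternatives covered the minimum, pseudocount, scaling, depth, fold and repeated symbols, and 1 that also asks for an interval without 0 was added after seeing the data. Software was Python 3.11.15 with matplotlib 3.10.9, pandas 2.3.3, scipy 1.17.1 and numpy 2.4.6.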

Additional observations from a re-analysis of the deposited data

Results flagged for a closer look

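Among the genes and lists named, some took the opposite direction with exercise in the tumor-bearing pair, E(+)T(+) against E(−)T(+), past 2-fold for single genes. With 1 library in each group, the difference between the pairs was not tested, and the E(+)T(+) library held far more globin reads than the others. Lower with exercise in the tumor-free and higher in the tumor-bearing pair were Retn, with a tumor-bearing log2 difference of 2.99, Angptl4 with 3.04, Car3 with 4.27, Adipoq with 2.52, Cfd with 2.43, Cidec with 3.65, Thrsp with 1.405, Scgb1a1 with 1.75, Sftpa1 with 1.92, Pdk4 with 2.26, Ucp3 with 3.46, Cd28 with 1.95, Cxcl15 with 2.11 and Orm1 with 1.55. The reverse was measured for Dio2 with −1.09, Ifrd1 with −1.09, Otud1 with −1.37, Ccl6 with −1.19, Ccl8 with −1.10 and Itgb2 with −1.63. List medians of opposite direction in the tumor-bearing pair were 1.45 for white adipocyte markers, 1.32 for lung epithelial markers, 0.72 for lymphocyte markers and −0.63 for macrophage genes.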

How the results depend on the processing

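No paired analysis was possible because each group has 1 library, and for the same reason no replicate could be left out. The numbers of genes past 2-fold, 376 higher and 406 lower, depended most on the minimum: 819 and 892 with a minimum of 4 normalized reads, 1264 and 1534 with none, 95 and 49 with a minimum of 100, and 187 and 158 where both libraries had to reach 16. A pseudocount of 8 gave 232 and 214, and a 1.5-fold call gave 1016 and 1111. Library total scaling, scaling without genes over 1% of a library, thinning the deeper library, summing values of a symbol and the interval rule kept both counts within 1.5 times. Of 1660 recomputed single gene differences, 11 left the counting interval, and of 404 recomputed list medians, 25 moved by over 0.1. No named gene past 2-fold changed its direction. The median of skeletal muscle markers went from 0.098 to −0.055 with a minimum of 4, and that of cholesterol genes from −0.124 to 0.07 with a minimum of 100. The medians of 12 other lists within 0.05 of 0 took the other sign in one alternative or more. Depth limits low genes: 27.5% of those with a mean under 32 normalized reads were past 2-fold.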

Other observations

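Several of the largest differences at 100 normalized reads or more belong to none of the themes above. Ifrd1, a transcriptional coregulator of muscle regeneration, had 306.4 normalized reads in E(−)T(−) and 1074 in E(+)T(−), and 1608 and 753.3 in E(−)T(+) and E(+)T(+). Tnfrsf12a, the receptor of the cytokine TWEAK, had 40.38 and 142.9 in the tumor-free pair and 235.7 and 120.3 in the tumor-bearing pair, and the deubiquitinase Otud1 followed the same order with 90.84, 278.6, 610.8 and 236.2. Thus all 3 were lowest in the normal control and highest in the cancer control. Gp1bb, a platelet glycoprotein subunit, had 51.86 and 160.1, with 175.6 and 198.9 in the tumor-bearing pair.

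Among the genes that fell, Pik3ip1, an inhibitor of PI3 kinase, was lower with exercise in both pairs, with 288.6 and 77.63 normalized reads without tumor and 311.6 and 88.7 with tumor, so that its log2 differences were −1.88 and −1.80. Adh1, an alcohol and retinol dehydrogenase, had 1013 and 302 in the tumor-free and 1339 and 869.7 in the tumor-bearing pair, and Ifitm1, an interferon-induced membrane protein, had 166.3 and 46.84 against 402.7 and 218.6. With 1 library per group, none of these differences was tested.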
